A study of Homo sapiens with 3 samples.

Results

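AXIN2 and 9 further genes of the Wnt pathway were examined in U87 glioma cells that carried either the wild-type IGF1 receptor or a receptor mutant kept out of the nucleus. The members were chosen by gene symbol: AXIN2, AXIN1, LEF1, TCF7, TCF7L2, CTNNB1, DKK1, DKK3, NKD1 and LRP6, which are 10 of the 25006 genes that could be named on the array. They were read by 16 of 58201 probes; 5 genes had 1 probe, 4 had 2 and TCF7L2 had 3, and 15 of these probes were printed as 1 spot.

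RNA of 2 stably transfected, G418-selected clones of the U-87MG line was compared. U87WT (clone U87WT 5) carried GFP-IGF1R, for which the labels give a nuclear receptor, and U87Mut (clone U87Mut 5) carried GFP-IGF1R1025x-1100x-1120x, which the labels call non-nuclear. The conditions were FBS-free medium for 24 h, IGF1 (50 nM) for 24 h, and IGF1 (50 nM) with OSI906, an inhibitor of the IGF1 and insulin receptors. The title gives 0.5 µM OSI906, while another label gives 500 µM, so the dose is uncertain. Times are those of the labels; sources of the study differ on how long the treatment and the preincubation with OSI906 lasted, so the times are uncertain too. Values in threes below follow this order, FBS-free, IGF1, OSI906, and the condition with both agents is called OSI906. Each condition was 1 array, on which U87WT RNA was labeled with Cy5 and U87Mut RNA with Cy3. Both clones kept the endogenous receptor of U87 cells, each construct was represented by 1 clone, and no parental sample was analysed here. Dye and clone therefore cannot be told apart, and neither can the treatment and the array.

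Canonical Wnt signaling controls how much β-catenin is available to the nucleus. Without a Wnt ligand, a destruction complex built on the scaffold AXIN1 marks β-catenin (CTNNB1) for degradation. When a Wnt ligand engages Frizzled and LRP6, β-catenin accumulates and acts with the DNA-binding factors LEF1, TCF7 and TCF7L2. AXIN2, a scaffold like AXIN1, is a classical target of this output and feeds back on it. DKK1 blocks LRP6 from outside the cell, NKD1 acts on dishevelled inside it, and DKK3 is a divergent relative of DKK1. The study discussed AXIN2 because the nuclear IGF1 receptor has been described to act with LEF1, which gives the question asked here: how AXIN2 and its pathway differed between the clones in each condition.

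TCF and LEF factors recognize a short core, searched here as CTTTGA or CTTTGT on both strands. RefSeq promoter windows of GRCh38.p14, from 250 bases before to 50 bases after a start site, were at hand for 6 members in 9 windows. AXIN2, DKK3, NKD1 and LRP6 had none in the table used. Of 35116 windows of all genes, 26.2% held at least 1 match and 0.886% held 3 or more. The 250 bases before the start are shown for DKK1, the member window with the most matches, for TCF7, whose second start held the next most, and for LEF1, which held none. Capitals mark the core as read on the printed strand, and each sequence is given 5′ to 3′ on the strand of its gene.
DKK1, chr10:52314031-52314280, plus strand: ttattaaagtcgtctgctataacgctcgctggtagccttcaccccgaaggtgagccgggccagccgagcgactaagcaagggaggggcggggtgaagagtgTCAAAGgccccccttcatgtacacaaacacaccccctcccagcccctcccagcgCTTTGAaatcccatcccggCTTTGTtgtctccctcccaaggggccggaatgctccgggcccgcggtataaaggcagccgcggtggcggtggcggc
TCF7, second start, chr5:134123368-134123617, plus strand: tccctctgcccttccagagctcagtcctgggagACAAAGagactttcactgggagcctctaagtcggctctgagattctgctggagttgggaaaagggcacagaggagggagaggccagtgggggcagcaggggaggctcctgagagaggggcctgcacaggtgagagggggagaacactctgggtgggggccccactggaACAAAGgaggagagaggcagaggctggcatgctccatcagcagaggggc
LEF1, chr4:108166302-108166551, minus strand: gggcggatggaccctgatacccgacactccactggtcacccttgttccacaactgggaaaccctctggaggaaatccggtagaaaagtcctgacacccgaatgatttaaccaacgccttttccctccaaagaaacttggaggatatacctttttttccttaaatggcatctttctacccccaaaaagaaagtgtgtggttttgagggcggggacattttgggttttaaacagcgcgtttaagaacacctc
In the DKK1 window the matches lay 149, 95 and 76 bases before the start site. In the TCF7 window they lay 217 and 49 bases before it. Of the 3 TCF7L2 windows, 1 held a match, 133 bases before the start. The windows of AXIN1, CTNNB1 and LEF1 and the other TCF7 start held 0. The LEF1 window reached up to 108166551 and the gene to 108168932, so the start used lies inside the annotated gene. Both TCF7 starts also lie inside their gene, which begins at 134108218, with windows from 134115363 and 134123368. The bases before the outer starts of LEF1 and TCF7 were not searched. A match is a stretch of letters and not a measured binding site.

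About 50.1% to 52.8% of spots were well above background in both channels on each array, and 0 spots were saturated. The IGF1R probe gave log2 clone ratios (U87WT over U87Mut) of 0.07, 0.23 and 0.09. Both clones carried an IGF1R construct, so these ratios cannot check the labels. Whether that probe reads the transgene is not known from the files. Of 7 markers of glioma and mesenchymal glial cells, 5 were well above background, with VIM between 14.9 and 16.1 on the log2 scale, while GFAP and S100B were not. Of the 3 neuronal markers 2 were well above background, and SYP was not. SNAP25 was detected, with log2 ratios of 1.06, 1.02 and 0.91. RBFOX3 was detected by 1 probe at levels between 8.50 and 9.81, with log2 ratios of −0.31, −0.55 and 0.38. The other RBFOX3 probe was not well above background. The part of these markers in the results below was not tested. Of the markers of oligodendrocytes 1 of 3 was well above background, of endothelium 1 of 2, of leukocytes 1 of the 2 with a probe and of epithelium 1 of 2, at levels of at most 7.15. The median probe among those printed 10 or more times varied with an SD of 0.03 to 0.08 in log2 ratio between spots of 1 array, which covers printing and scanning and not cultures.

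AXIN2 was higher in U87WT than in U87Mut in all 3 conditions and by both of its probes. The gene lies on chromosome 17, from 65528563 to 65561648 of GRCh38.p14. Its brighter probe gave background-subtracted U87WT brightness of 209 in FBS-free medium, 96.5 under IGF1 and 180 under IGF1 with OSI906, in scanner units. The U87Mut brightness of the same spots was 69, 35 and 66. U87WT was thus brighter on each array, and both clones were dimmest on the IGF1 array. After normalization its log2 ratio was 1.12 without serum, 0.49 on the IGF1 array and 0.90 with OSI906, or 2.18-, 1.40- and 1.87-fold. The second AXIN2 probe, which is annotated to the same transcript, gave brightness of 108, 90 and 59 in U87WT against 49, 19.5 and 34 in U87Mut. Its log2 ratios were 0.66, 0.73 and 0.29. The probes shared the direction but not the order of the conditions: the brighter probe had its lowest ratio after IGF1, the other after IGF1 with OSI906. That order depended on the processing. With all spots fitted the second probe gave 0.64, 0.11 and 0.29 and the deposited ratios were 0.81, 0.11 and 0.42, lowest after IGF1 as well. It stayed lowest with OSI906 at an offset of 20 (0.42), without background correction (0.45), with signals processed by the scanner software (0.65) and with median normalization (0.35).

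Over the 3 arrays, taken as the only repeats of the clone comparison, the brighter AXIN2 probe had a mean log2 ratio of 0.84 ± 0.13 (SE, n = 3, limma, adjusted p = 0.02703). The second probe had a mean of 0.56 ± 0.10 (SE, n = 3, limma, adjusted p = 0.03685). The ratio stayed positive on every array and by both probes under the 6 other ways of computing it, but its size on the IGF1 array did not hold. With the background fitted on all spots, including those marked not uniform, the IGF1 ratios were 0.07 and 0.11, and the table of log2 ratios that the authors deposited gave 0.07 and 0.11 as well. The adjusted p of limma for the brighter probe rose to 0.3383 with that background fit, to 0.09338 without the FBS-free array and to 0.1737 without the array of IGF1 with OSI906, and over all alternatives it ranged from 0.001909 to 0.3383. That of the second probe ranged from 0.005918 to 0.3426.

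**Figure D1:**
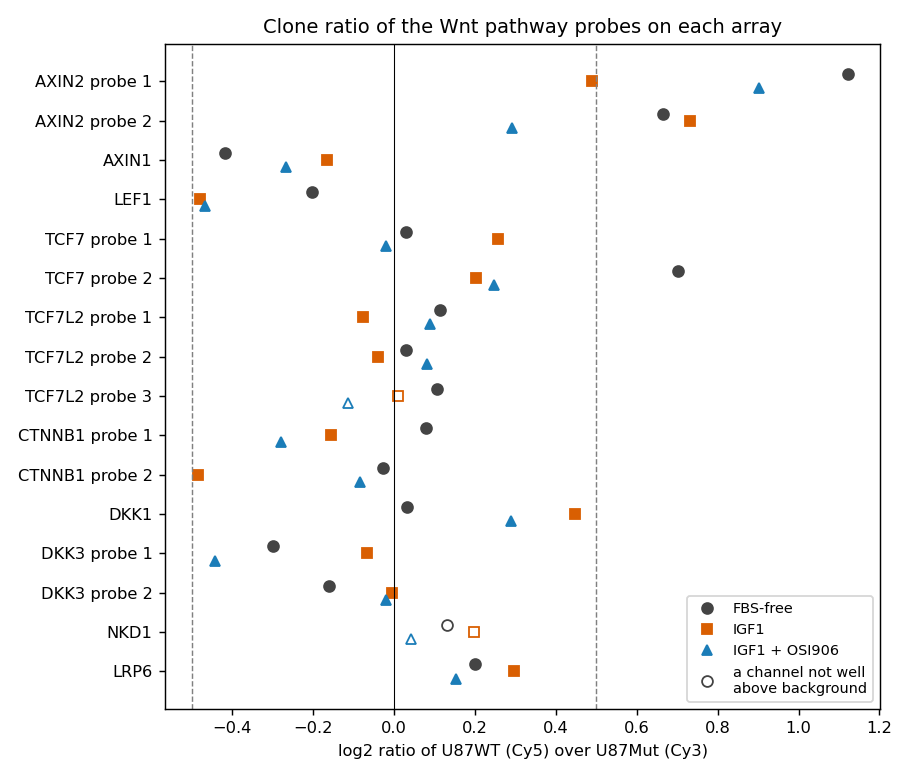
Log2 ratio of U87WT (Cy5) over U87Mut (Cy3), horizontal axis, for each of the 16 probes of the 10 Wnt pathway genes, 1 point per array and no error bar because each condition was 1 array; probe 1 is the brightest of a gene. Dashed lines mark the limits of 0.5 either way, and open points have a channel not well above background. Both AXIN2 probes lie to the right of 0 on every array, between 0.29 and 1.12, while AXIN1 and LEF1 lie to the left.

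AXIN1, the relative of AXIN2 that is the standing scaffold of the destruction complex, lies on chromosome 16 from 287440 to 352723 and ran the other way. Its brightness was 65.5, 97 and 85 in U87WT against 112.5, 82.5 and 105.5 in U87Mut. After normalization its log2 ratios were −0.42, −0.17 and −0.27, negative on every array. The mean of −0.28 ± 0.06 (SE, n = 3) did not pass the test (limma, adjusted p = 0.0599). It passed under some alternatives, with an adjusted p by limma of 0.03244 at an offset of 20, 0.04481 without background correction, 0.04233 with detected probes only and 0.02935 without the IGF1 array, in a range from 0.02935 to 0.7512 over all of them. On the IGF1 array the AXIN1 ratio was 0.04 with median normalization in place of loess.

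CTNNB1, the gene of β-catenin on chromosome 3 from 41199505 to 41240443, was level between the clones in FBS-free medium and lower in U87WT after IGF1 by both probes with loess, without passing the test. Its brighter probe was printed as 10 spots, and their mean log2 ratio was 0.08, −0.16 and −0.28. The SD between the 10 spots was 0.03, 0.06 and 0.06 on these arrays. The 10 spots ranged from 0.05 to 0.11 in FBS-free medium and from −0.42 to −0.16 with OSI906. This spread covers repeats within 1 array and not arrays or cultures, so it cannot tell whether the conditions differed. The second CTNNB1 probe gave −0.03, −0.49 and −0.08, so the probes differed in which array was lowest. Neither passed the test over the arrays (limma, adjusted p = 0.4788 and 0.3654). With median normalization the brighter probe stood at −0.15 in FBS-free medium and at 0.35 after IGF1, so its order of conditions rests on the loess step.

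LEF1, a DNA-binding partner of β-catenin, was lower in U87WT in all 3 conditions. It lies on chromosome 4 from 108047548 to 108168932. Brightness in U87WT was 765, 727 and 628 against 937, 703 and 840 in U87Mut. The normalized log2 ratios were −0.20, −0.48 and −0.47. The raw IGF1 values were nearly level between the channels, and the ratio there was negative only after normalization. The mean of −0.38 ± 0.07 (SE, n = 3) passed the test (limma, adjusted p = 0.04019). LEF1 was negative under all 6 other settings on every array, from −0.08 with median normalization to −0.79 in the deposited table on the IGF1 array. Its adjusted p by limma was 0.06247 without the IGF1 array and 0.2157 without the array of IGF1 with OSI906, and it ranged from 0.021 to 0.4829 over all alternatives.

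TCF7, another factor of this family on chromosome 5 from 134108218 to 134148210, was read by probes for different transcripts that gave different ratios. The brighter probe had log2 ratios of 0.03, 0.26 and −0.02. The probe annotated to the transcript NM_001346425 had brightness of 388, 229 and 318 in U87WT and of 230, 134 and 248 in U87Mut. Its log2 ratios were 0.70, 0.20 and 0.25, so this probe was past 0.5 in FBS-free medium alone among the arrays. Neither probe passed the test (limma, adjusted p = 0.5381 and 0.1329). On the IGF1 array both TCF7 ratios turned negative, at −0.12 and −0.03, with the background fitted on all spots.

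TCF7L2, the factor of the family best known from intestinal cells, was close to background by its 3 probes. Their levels lay between 5.90 and 6.39 in both clones, and their log2 ratios between −0.12 and 0.11. The dimmest of these probes was not well above background on either IGF1 array.

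DKK1, the secreted antagonist of LRP6 on chromosome 10 from 52314281 to 52317657, had brightness of 111, 133.5 and 68.5 in U87WT against 113, 56.5 and 41.5 in U87Mut. The clones were level in FBS-free medium, with a log2 ratio of 0.03, and U87WT was the higher on the IGF1 array at 0.45 and with OSI906 at 0.29. The spot on the IGF1 array was marked not uniform by the scanner software, with a local Cy5 background of 60.5 against 21 on both other arrays. With the background fitted on all spots the IGF1 ratio was 0.07, and the mean over the arrays, 0.26 ± 0.09 (SE, n = 3), did not pass the test (limma, adjusted p = 0.187). DKK3 had log2 ratios of −0.30, −0.07 and −0.44 by its brighter probe and of −0.16, −0.01 and −0.02 by the other. Neither DKK3 probe passed the test (limma, adjusted p = 0.1397 and 0.5365), but without the IGF1 array the brighter one did (limma, adjusted p = 0.02281), in a range from 0.02281 to 0.602 over all alternatives.

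LRP6, the co-receptor on chromosome 12 from 12116025 to 12267044, had brightness of 868, 810 and 770 in U87WT against 788, 440 and 649 in U87Mut. The log2 ratios were 0.20, 0.30 and 0.15, and their mean of 0.22 ± 0.04 (SE, n = 3) did not pass the test (limma, adjusted p = 0.05401). Its direction was not stable: the IGF1 ratio was −0.13 with the background fitted on all spots, and the FBS-free ratio was −0.08 with median normalization. NKD1, the dishevelled-binding inhibitor, was not well above background in 5 of its 6 channel readings. Its brightness was at most 10 in U87WT and at most 6 in U87Mut, so no fold is given.

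Counted over the 16 probes, 3 were above 0.5 in log2 ratio in FBS-free medium (both AXIN2 probes and the second TCF7 probe) and 0 were below −0.5. Of all 58197 probes on that array 2.43% were above 0.5 and 2.26% below −0.5. After IGF1, 1 member was above, the second AXIN2 probe, and 0 were below, beside 2.84% and 1.79% of all probes. With OSI906, 1 member was above, the brighter AXIN2 probe, and 0 were below, beside 2.24% and 2%. In limma's test over the arrays, 2 of the 16 probes were called higher in U87WT and 1 lower at a false discovery rate of 5%, beside 4.28% and 4.15% of all 58174 probes tested. Of the member probes 14 of 16 were well above background throughout, against 27680 of all 58201 probes, so these shares are not like for like. With the test run on detected probes only, 4 members were called, beside 2716 higher and 2646 lower of 27667 probes. Without the FBS-free array 1 of the 16 was called, and without the OSI906 array 0, beside 1159 of 58178 and 232 of 58177 probes. Without the OSI906 array 7 of the 16 had an unadjusted p under 0.05 by limma, beside 9305 of 58177 probes. With all arrays, at an unadjusted p under 0.05, limma gave 9 of 16 member probes beside 21.1% of all probes. With detected probes only it gave 8 of 14 members beside 9196 of 27667 probes. The ratio had the same sign on all arrays for 11 of 16 member probes, 6 positive and 5 negative, beside 43.7% of all probes. No share among detected probes was computed for the sign or for the limit of 0.5. The median member ratio was 0.06, 0.0021 and 0.01 on the 3 arrays, near 0 on each.

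How each clone responded was read from the normalized level of its own channel on different arrays, with the FBS-free array entering both comparisons against it. No condition was repeated, so none of these differences has a test. AXIN2 in U87WT stood at 7.97, 7.15 and 7.89 by its brighter probe, in log2 levels. In U87Mut the same probe stood at 6.84, 6.66 and 6.99. The step from FBS-free medium to IGF1 was −0.81 in U87WT and −0.18 in U87Mut. The step from IGF1 alone to IGF1 with OSI906 was 0.74 in U87WT and 0.33 in U87Mut. The background-subtracted brightness of this probe was 209, 96.5 and 180 in U87WT and 69, 35 and 66 in U87Mut. It thus fell and rose by similar factors in both clones. The larger steps in U87WT were seen after the offset and normalization and not in this brightness. With an offset of 20 the step to IGF1 was −0.96 in U87WT and −0.28 in U87Mut. The course of the second AXIN2 probe depended on the background fit. With spots marked not uniform left out, in U87WT it stood at 7.29, 7.10 and 6.82, lowest with OSI906, and in U87Mut at 6.63, 6.37 and 6.53. With all spots fitted its U87WT steps were −0.68 from FBS-free medium to IGF1 and 0.29 from there to OSI906, so it was lowest after IGF1. Over the 6 levels, which come in pairs from 3 arrays, the AXIN2 probes correlated with a Pearson r of 0.75. The distance of the IGF1 ratio from the mean of the other arrays was −0.52 for the brighter AXIN2 probe and 0.25 for the second, which became −0.36 with all spots fitted and −0.50 in the deposited table. The brighter AXIN2 probe was the 1 member past 0.5 in this distance, beside 2.31% of all probes.

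**Figure D2:**
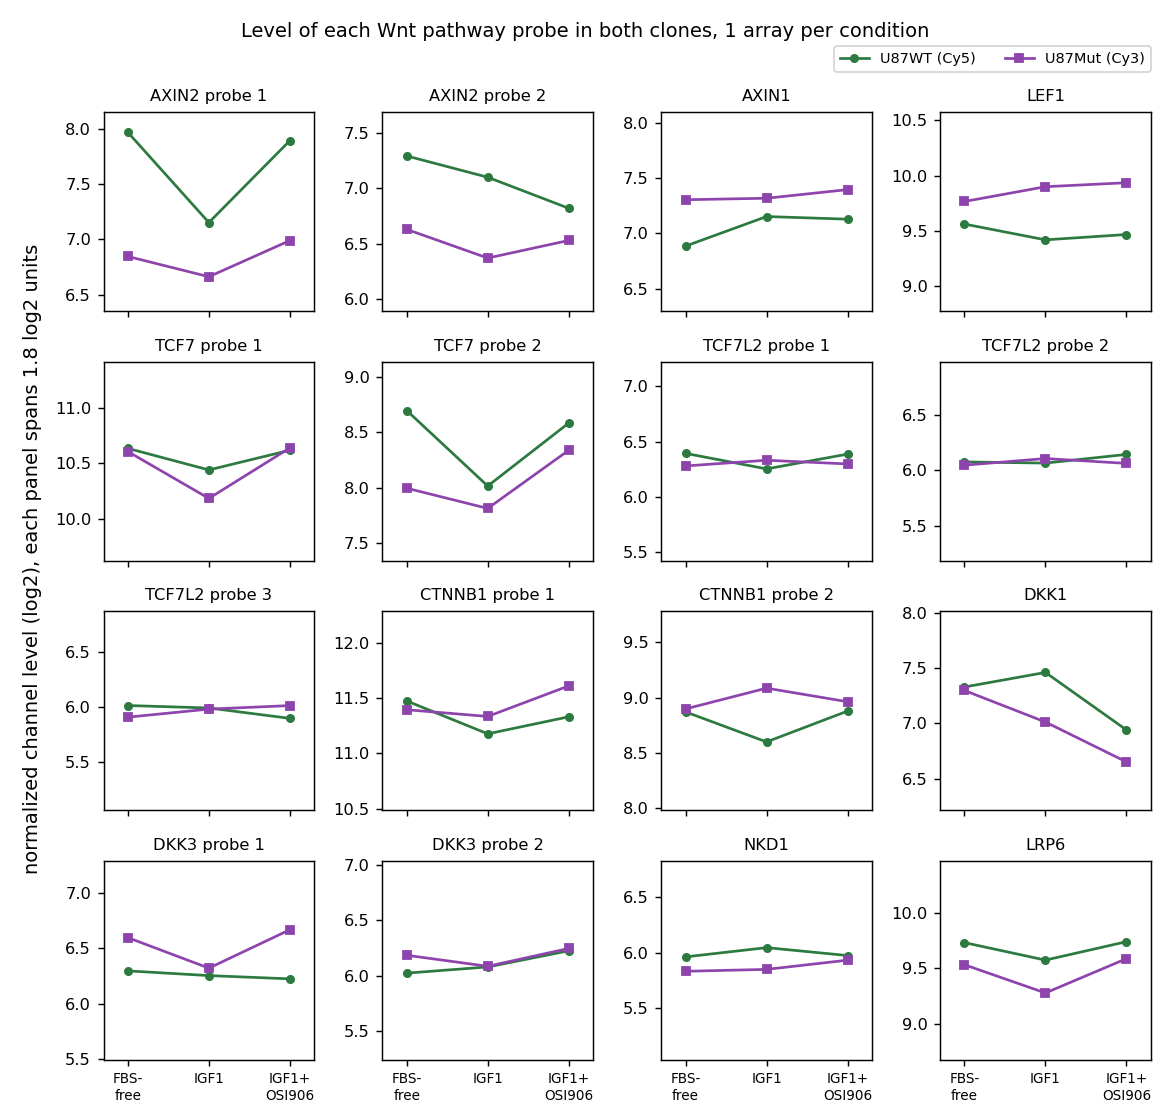
Normalized log2 channel level, vertical axis, of each of the 16 probes in U87WT (Cy5, circles) and U87Mut (Cy3, squares) on the 3 arrays, horizontal axis; every panel spans the same height, and each point is 1 array. The brighter AXIN2 probe in U87WT stands at 7.97 in FBS-free medium, 7.15 on the IGF1 array and 7.89 with OSI906.

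The NM_001346425 probe of TCF7 showed the same course as the brighter AXIN2 probe. In U87WT its level was 8.70, 8.01 and 8.58, and in U87Mut it was 7.99, 7.81 and 8.34. The step from IGF1 alone to IGF1 with OSI906 was 0.57 in U87WT and 0.53 in U87Mut. DKK1 took another course: 7.33, 7.46 and 6.94 in U87WT and 7.30, 7.01 and 6.65 in U87Mut, lowest with OSI906 in both clones. Against FBS-free medium the DKK1 level with OSI906 differed by −0.39 in U87WT and by −0.65 in U87Mut. Among all 16 probes, U87WT had 0 probes above 0.5 and 2 below −0.5 from FBS-free medium to IGF1 (AXIN2 and TCF7, named above), beside 1.21% and 1.18% of all probes. From IGF1 to IGF1 with OSI906 the same 2 probes were above 0.5 and DKK1 was below −0.5, at −0.52, beside 1.86% and 1.65%. In U87Mut 0 members passed 0.5 from FBS-free medium to IGF1, beside 1.04% of all probes in either direction, and TCF7 was above it from IGF1 to IGF1 with OSI906, beside 0.753%. DKK1 was the 1 member below −0.5 with OSI906 against FBS-free medium in U87Mut, beside 0.268%, and 0 members passed either way in U87WT, beside 2.03%. Without normalization between arrays, the median of all probes shifted by −0.12 in both clones from FBS-free medium to IGF1, so smaller steps than that depend on the scaling.

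The processing decided how far AXIN2 stood apart on the IGF1 array. That array held 572 spots marked not uniform, against 384 on the FBS-free array and 5 on the OSI906 array. With these left out of the background fit the AXIN2 ratios on the IGF1 array were 0.49 and 0.73, and with all spots they were 0.07 and 0.11. Signals processed by the scanner software gave 0.97 and 1.56. In FBS-free medium the same settings gave 1.12, 1.09 and 1.88 for the brighter probe, so there the choice of spots in the fit moved it little.

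**Figure D3:**
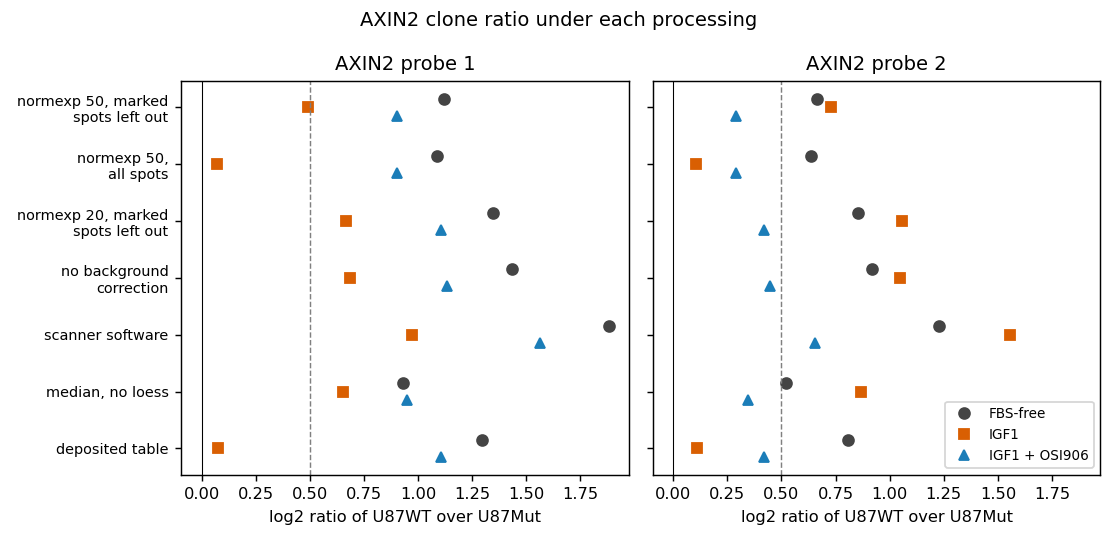
Log2 ratio of U87WT over U87Mut, horizontal axis, of the AXIN2 probes on the 3 arrays under 7 ways of processing, 1 per row; each point is 1 array. The FBS-free and OSI906 points lie at 0.29 or above throughout, while the IGF1 points move from 0.07 to 0.97 for the brighter probe and from 0.11 to 1.56 for the second.

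Genes with levels most like AXIN2 were ranked by the Pearson correlation of their 6 channel levels with those of the brighter AXIN2 probe, among 2498 probes well above background whose SD over the levels was at least 0.3. The first was DICER1-AS1, an antisense transcript of the DICER1 locus, with an r of 0.998 and log2 ratios of 0.87, 0.41 and 0.66. HCFC1R1 followed with 0.99 and ratios of 1.00, 0.52 and 0.82, then SDHAF4, an assembly factor of succinate dehydrogenase, with 0.99 and ratios of 0.71, 0.21 and 0.50. CDH23, a cadherin, had ratios of 1.35, 0.78 and 1.26, and TEP1, a telomerase-associated protein, had 0.77, 0.31 and 0.71, both with an r of 0.99. All these genes were higher in U87WT on every array and had their lowest ratio after IGF1. That follows from the ranking, which chose them for levels like those of the brighter AXIN2 probe. Since 159 candidates had an r over 0.95, and the 6 levels share 3 arrays, such likeness was common on these arrays.

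The remaining Wnt pathway was covered by a list of 106 genes, the members among them, of which 104 had a named probe and 69 were well above background throughout. By the brightest probe of each gene, 16 were called higher and 4 lower in U87WT (limma, 5% false discovery rate), beside 7% and 6.65% of the 25006 named genes. Among named genes well above background these background shares were 11% and 10.7%. The median log2 ratio of the list was 0.03 on each array, so the list as a whole lay near 0.

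Of 19 ligands listed, 2 were called higher and 1 lower. Of 2 secretion genes 1 was called higher, and of 9 genes for R-spondins and their receptors 2 were called higher, with 0 lower in either group. Beside each group of the list stand the shares of all named genes, 7% higher and 6.65% lower. Among those well above background the shares were 11% and 10.7%. WNT10B, a canonical Wnt ligand, had log2 ratios of 1.06, 1.31 and 1.15 (mean 1.17, limma adjusted p = 0.003687). WNT6 had 0.54, 0.82 and 0.72 (mean 0.69, limma adjusted p = 0.008741), and WNT5B was lower in U87WT at a mean of −0.37. RSPO3, a secreted enhancer of Wnt signaling, had the highest ratios of the list, at 1.79, 1.55 and 1.92 by its brighter probe. The second RSPO3 probe gave 1.47, 1.55 and 1.40. Both RSPO3 probes were called (limma, adjusted p = 0.003377 and 0.002905). LGR4, a receptor of R-spondins, had 0.82, 1.18 and 0.59 (mean 0.86, limma adjusted p = 0.02114). WLS, which carries Wnt proteins to the cell surface, was higher at a mean of 0.43.

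Of 15 receptors listed, 3 were called higher and 0 lower, all of them Frizzled proteins. FZD2 had ratios of 0.59, 0.70 and 0.52, FZD7 had 0.54, 0.73 and 0.63, and FZD1 had a mean of 0.40. Of the 15 secreted inhibitors and their receptors, KREMEN1 was called higher, at a mean of 0.44. Of 7 genes for dishevelled and its inhibitors limma called 0, with an unadjusted p under 0.05 for 2. Of 13 genes listed for the destruction complex, AXIN2 and APC2 were called higher, APC2 at a mean of 0.19.

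Of 14 genes for β-catenin and its nuclear partners, 2 were called higher and 2 lower. TLE1, a co-repressor that binds LEF and TCF factors, had ratios of 1.22, 0.77 and 1.06 by its brightest probe (mean 1.02, limma adjusted p = 0.008844). Its other probes, for other transcripts, had means of 0.27 and 0.26 and were not called (limma, adjusted p = 0.2053 and 0.07365). PYGO1 was the other gene called higher, at a mean of 0.36, and LEF1 and CTNNBIP1 were the lower ones, CTNNBIP1 at −0.29. Among 12 further targets, TCF4, MMP7 and PPARD were called higher and CCND1 lower. TCF4 had ratios of 0.98, 1.05 and 0.88. It is a helix-loop-helix factor and not TCF7L2, which has gone by the same name. CCND1, the gene of cyclin D1 and a textbook target of LEF and TCF factors, had −1.39, −1.18 and −1.17 (mean −1.25, limma adjusted p = 0.003377). CCND1 and AXIN2, both known as targets of the pathway, thus differed between the clones in opposite directions. Counts over the list depended on the processing, with 1 gene called when the background was fitted on all spots and 2 in the deposited table. It called 9 without the FBS-free array and 2 without the OSI906 array.

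**Figure D4:**
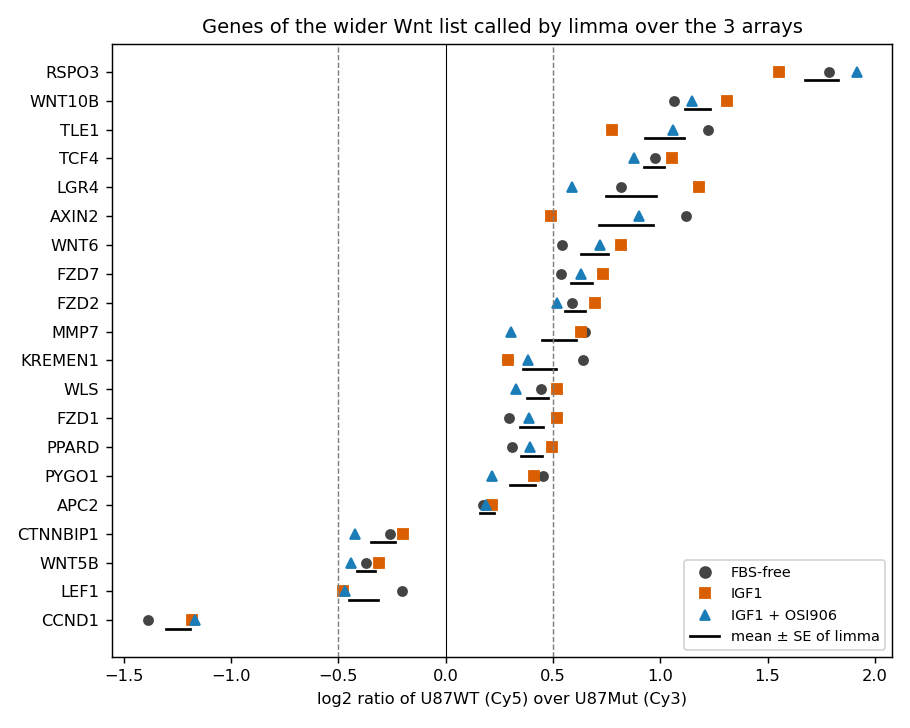
Log2 ratio of U87WT over U87Mut, horizontal axis, of the 20 genes of the wider Wnt list called by limma, by their brightest probe; points are the 3 arrays and the black bars the mean ± SE of limma over them. RSPO3 lies furthest to the right, at 1.55 to 1.92, and CCND1 furthest to the left, at −1.39 to −1.17; LEF1 and AXIN2 are the members among them.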

How the data were processed

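RNA of both clones was hybridized to Agilent SurePrint G3 Human Gene Exp v3 arrays, 1 array for each of 3 conditions, on 1 slide. The intensity values were deposited as Feature Extraction 12.0.3.1 gave them per the file headers: median spot and local background brightness in each channel, with marks for spots not uniform, outlying, saturated or well above background. The scanner software also deposited processed intensities and a log10 ratio of red over green, converted to log2 here. The authors also deposited log2 ratios per probe, made with limma by background correction and normalization within and between arrays, kinds not given; their column medians were −0.0066, −0.0074 and −0.003, and scale and direction were checked across probes against ratios recomputed from the scanner values (r = 0.985, 0.9565 and 0.9745).

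Computations used R (version 4.3.3) and limma (version 3.58.1). Background was corrected by normexp (offset 50) on median signal, fitted without spots marked not uniform. The 2075 control spots were removed, arrays were normalized by loess within and Aquantile between, outlying spots were dropped and spots of a probe averaged. Symbols came by RefSeq accession from GRCh38.p14 for 34892 of 36770 probes with a RefSeq transcript. A log2 ratio past 0.5 either way was counted. The clone difference over the arrays was tested with limma (intercept only, Benjamini-Hochberg at 5% over 58174 probes); its arrays are different conditions, so treatment adds to its error, and the number of arrays limits the precision. The code of the test was run on simulated data, with independent noise of equal spread and the same change on all arrays. These arrays are different conditions, so that run does not show how the test performs on them. The members, lists and tests were chosen with earlier results of these data known. All members were named, with IGF1R, the genes of the wider list past 0.5 one way on all arrays, and the 5 genes most like AXIN2; other genes were named after their values were seen. Alternatives were other background corrections, scanner signals, median within arrays, none or scale between arrays, other limits, detected probes, probe means, the deposited table and each array left out.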

Additional observations from a re-analysis of the deposited data

Results flagged for a closer look

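These changes went opposite ways in the clones, by more than 0.1 on the log2 scale in each; with 1 array per condition the differences were not tested, and a change of the clone ratio between arrays leaves a constant dye effect out. From FBS-free medium to IGF1, LEF1 changed by −0.14 in U87WT and 0.13 in U87Mut, a difference of −0.28 that became 0.40 with median normalization. The second CTNNB1 probe changed by −0.27 and 0.19, a difference of −0.46 that became 0.16 with median normalization. DKK1 changed by 0.13 and −0.29, a difference of 0.42, with its spot on the IGF1 array marked not uniform; with all spots fitted it changed by −0.18 and −0.22, the same way. From IGF1 to IGF1 with OSI906, the second AXIN2 probe changed by −0.28 and 0.16, a difference of −0.44. With all spots fitted that probe changed by 0.29 and 0.10, the same way, a difference of 0.19, and the deposited table gave 0.31. The second CTNNB1 probe changed by 0.28 and −0.12, a difference of 0.40. From FBS-free medium to IGF1 with OSI906, the second TCF7 probe changed by −0.11 and 0.34, a difference of −0.46, and the brighter CTNNB1 probe by −0.14 and 0.22, a difference of −0.36 that became 0.02 with median normalization. Under the 6 other ways of computing the ratio, the remaining differences kept their sign. The other probe of AXIN2 and of TCF7 did not go opposite ways by this measure in the same comparison, nor did the other CTNNB1 probe in any of these.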

How the results depend on the processing

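The clones were compared as a ratio within each array, so the clone test was paired by array. No paired analysis of the conditions was possible, because each condition held 1 array and the labels give no replicate numbers. The mean ratios of the 3 called member probes and of the 20 called genes of the wider list, by their brightest probe, changed sign under no other setting run, but the counts moved. Member probes past 0.5 in FBS-free medium, 3 in the report, were 5 without background correction, 7 with scanner signals, 10 at 0.5 SD of the array and 1 at a limit of 1. After IGF1, 1 in the report, they were 2 with all spots fitted, 5 with an offset of 20, 5 without background correction, 7 with scanner signals, 5 with median normalization, 2 in the deposited table, 11 at 0.5 SD and 0 at 1, and 1 gene by the mean of its probes. With OSI906, 1 in the report, they were 2 with an offset of 20, 2 without background correction, 7 with scanner signals, 2 in the deposited table, 10 at 0.5 SD and 0 at 1. With scanner signals 34.5% to 36.8% of all probes were past 0.5.

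Members called by limma, 3 in the report, were 0 with all spots fitted, with scanner signals, with median normalization and in the deposited table, and 0 to 4 with an array left out. All probes called, 4905 in the report, were 669, 0, 0 and 785 under these settings. At an unadjusted p under 0.05 limma gave 10984 with scanner signals and 5125 with median normalization, members 8 and 4 of 16. With all spots fitted it gave 4 of 16 members, beside 7874 of 58174 probes. In the deposited ratios it gave 5 of 16, beside 8206 of 58201. Without the FBS-free array 1159 probes were called and without that of IGF1 with OSI906 232. Members whose IGF1 ratio lay past 0.5 from the others, 1 in the report, were 5 without background correction, 9 with scanner signals, 3 with median normalization and 5 in the deposited table; the second AXIN2 probe then stood at −0.36 with all spots fitted against 0.25.

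Of the level steps, U87WT from FBS-free medium to OSI906, 0 in the report, had 1 with an offset of 20, 2 without background correction and 2 without normalization between arrays. U87Mut had 1 from FBS-free medium to IGF1 without normalization between arrays; from IGF1 to OSI906, 1 in the report, it had 0 with all spots fitted, 2 with an offset of 20 and 4 without background correction. Genes of the wider list past 0.5 by their brightest probe were 13, 14 and 13 of 104 with the main settings. Of these 11, 12 and 11 were above 0.5, beside 2.43%, 2.84% and 2.24% of all probes. On each array 2 were below −0.5, beside 2.26%, 1.79% and 2%. These shares, and those that follow, are of all probes, of which 27680 of 58201 were well above background. The list counts genes by their brightest probe, with 69 of 104 well above background. The sides are thus unlike, and no share of named or detected genes was computed for this limit. In FBS-free medium the list had 20 without background correction and 37 with scanner signals, beside 7.55% and 34.5% of all probes. After IGF1 it had 5 with all spots fitted and 6 in the deposited table, beside 3.48% and 4.62%. There it had 41 with scanner signals and 34 with median normalization, beside 36.8% and 11.5%. After IGF1 with OSI906 it had 39 with scanner signals, beside 35.1%. The list's 20 calls became 1 with all spots fitted, 0 with scanner signals, 0 with median normalization, 2 in the deposited table, and 2 to 22 with an array left out. The cause of these moves was not tested. Probes near background, among them TCF7L2 and NKD1, set no order.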

Other observations

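Some genes of the wider Wnt list were past 0.5 on some arrays without being called, and were named after their values were seen. FOSL1, an AP-1 subunit, had ratios on the log2 scale of −0.75 in FBS-free medium, −1.15 on the IGF1 array and −0.18 on the OSI906 array (limma, adjusted p = 0.1161). BCL9L, which links β-catenin to its co-activators, had 0.23, 0.62 and 0.81 (limma, adjusted p = 0.064). WNT5A, a ligand of non-canonical signaling, had 0.24, 0.44 and 0.67 (limma, adjusted p = 0.05094). TLE4, a relative of TLE1, had −0.17, −0.0028 and −0.56 (limma, adjusted p = 0.3243). FOSL1 was thus furthest from 0 after IGF1, and WNT5A and BCL9L with OSI906.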
